A study of Mus musculus with 16 samples.

Results

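The genes described here encode proteins of the nuclear envelope and of chromatin, chosen in view of the nuclear architecture that sets mouse rods apart. They are 9 genes, taken by name from the deposited gene table of 32166 genes: Lbr, Lmna, Lmnb1, Lmnb2, Hmgb1, Hmgb2, H1f0, Cbx1 and Cbx5. All 9 were present and all 9 passed the filter on low values (1 CPM, a count scaled to library size, in at least 2 libraries), which left 15202 genes. They were measured in Nrlp-GFP+ cells sorted by flow cytometry from mouse retinal organoids, in which the promoter of Nrl, the transcription factor that directs photoreceptor precursors to the rod fate, drives green fluorescent protein. The 16 polyA RNA libraries came from organoids grown from induced pluripotent stem cells (iPSC, 7 libraries) or embryonic stem cells (ESC, 9 libraries). The iPSC clones were made from embryonic fibroblasts with lentiviral vectors for Oct3/4, Sox2, Klf4 and c-Myc that doxycycline switches on, and the ESC clones came from blastocysts; both lines carried the Nrl-GFP transgene and were kept on fibroblast feeders.

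Cells were sorted on day 18 (2 iPSC and 3 ESC libraries), day 21 (1 iPSC and 3 ESC), day 25 (2 iPSC and 1 ESC), day 28 (1 of each) and day 35 (1 of each). All organoids were kept at 5% oxygen until day 10 and received retinoic acid and taurine, with retinoic acid given until day 26 and the medium replaced then, so the later days also differ from the earlier ones in medium. The day and the medium cannot be told apart after day 26. Whether replicates were separate cultures is not stated, and each p-value here reflects only the variation among these libraries, which may be technical.

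In most nuclei, heterochromatin lies against the envelope, held there by tethers that include the lamin B receptor and lamin A/C. Mature mouse rods lose both tethers, and their heterochromatin gathers in the centre of the nucleus, with euchromatin at the rim, an inverted arrangement known from nocturnal mammals. HP1 proteins bind the histone mark of constitutive heterochromatin, HMG-box proteins bend DNA, and linker histones compact nucleosomes, so these groups act on the same chromatin from inside.

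Across days 18 to 35, 6 of the 9 genes fell: the HMG-box genes Hmgb2 and Hmgb1, the B-type lamin gene Lmnb1, the HP1 genes Cbx1 and Cbx5, and the linker histone gene H1f0. The other 3 were the tether genes Lbr and Lmna and the second B-type lamin gene Lmnb2, none of which had a slope that passed the test. In a fit of a straight line over days with the source as a term, 6 of 9 genes were called lower, none higher, against a background of 5.29% of the 15202 genes called lower and 6.81% called higher. Calls throughout are limma adjusted p-values under 0.05 on log2(CPM + 1), adjusted by the Benjamini-Hochberg method over all genes tested. At day 35 against day 18, 5 of 9 were called lower and none higher, against a background of 2.99% called lower and 4.54% called higher (7.53% in all). The median log2 fold change of the 9 genes was -1.12 in that comparison, beside 0.04 over all genes tested.

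**Figure D1:**
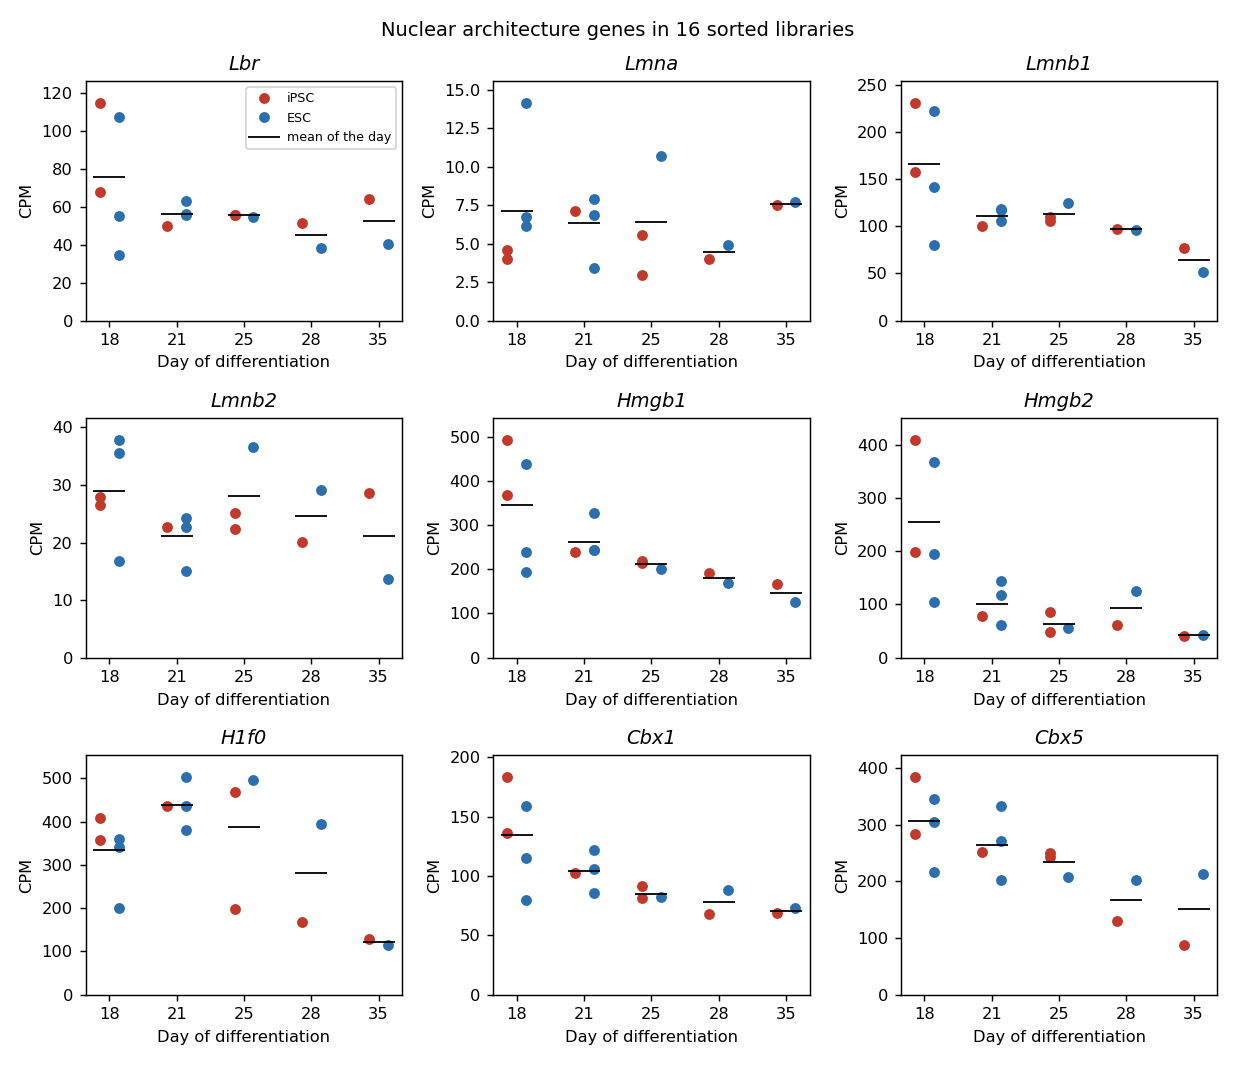
CPM (y axis, from 0, a separate scale for each gene) by day of differentiation (x axis) for the 9 genes, with iPSC libraries in red, ESC libraries in blue and a black line at the mean of each day. Hmgb1 stepped down at each day to a mean of 145.5 CPM at day 35, H1f0 stood highest at days 21 and 25, and Lmna stayed between 2.92 and 14.1 CPM.

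Libraries that stand apart bear on these counts. At day 18, iPSC replicate 1 and ESC replicate 1 had 16 and 17.7 CPM of Nrl, whereas the 3 others of that day had 136 to 881 CPM. In that pair the summed level of 16 cell cycle genes was 1793 CPM (iPSC) and 1651 CPM (ESC), and the rest of that day ran from 380.1 to 802.2 CPM. The summed level of 10 retinal progenitor genes was 140.5 CPM (iPSC) and 532.4 CPM (ESC) at day 35, against 2619 CPM (iPSC) and 2601 CPM (ESC) in the pair and 306.2 to 1646 CPM in the rest of day 18. All 10 had a negative log2 fold change at day 35 against day 18 (median -2.74), and 2 were called. ESC replicate 1 of day 18 also had 7.48 CPM summed over 4 Y-linked genes where the other ESC libraries had 82.6 to 229.3 CPM, and iPSC replicate 2 of day 18 had 144.0 CPM where the other iPSC libraries had 9.60 to 43.1 CPM. Both go against the level of their labelled source. The ESC library of day 35 had summed levels of 1373 CPM for 7 Müller glia genes and 396.3 CPM for 7 bipolar cell genes, against 233.3 to 479.2 and 39.5 to 134.6 CPM elsewhere. Its pigment epithelium list was at 2091 CPM, nearly all from Ttr (up to 2070.0 CPM), while the defining gene Rpe65 was at 0 in 15 of 16 libraries and at most at 0.0454 CPM. The 10 rod genes summed to 242.3 to 12540 CPM. In the low-Nrl pair that sum was mostly Crx, a factor shared by rods and cones, with 197.8 of 245.2 CPM (iPSC) and 191.6 of 242.3 CPM (ESC), and Pde6a, Cnga1 and Rcvrn were each at 0 in 1 or 2 libraries of day 18. The cone gene Opn1mw was at 0 in all 16. The part of these differences in the results below was not tested beyond the values given without those libraries, and in sorted bulk RNA fewer cells of a type and less RNA per cell cannot be told apart.

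Promoter sequences of the genes called lower at day 35 are shown because each of these genes had a called change; they come from RefSeq on GRCm38.p6 and run from 250 bases before to 50 bases after a transcription start. Capitals mark matches to the CCAAT box (CCAAT on either strand) and to the cell cycle homology region (CHR, TTTGAA or TTCGAA on either strand), both known from promoters of genes that cycle with cell division. Lmnb1 is not shown. For Hmgb1 and Cbx5, which have several starts in RefSeq, the most upstream one is given.
Hmgb2, chr8:57511593-57511892, plus strand: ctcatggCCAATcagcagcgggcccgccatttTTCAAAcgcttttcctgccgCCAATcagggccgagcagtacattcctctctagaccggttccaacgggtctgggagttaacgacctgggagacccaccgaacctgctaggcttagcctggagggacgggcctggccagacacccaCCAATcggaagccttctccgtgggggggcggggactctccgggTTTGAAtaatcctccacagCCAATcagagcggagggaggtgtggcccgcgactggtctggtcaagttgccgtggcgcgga
Hmgb1, chr5:149053008-149053307, minus strand: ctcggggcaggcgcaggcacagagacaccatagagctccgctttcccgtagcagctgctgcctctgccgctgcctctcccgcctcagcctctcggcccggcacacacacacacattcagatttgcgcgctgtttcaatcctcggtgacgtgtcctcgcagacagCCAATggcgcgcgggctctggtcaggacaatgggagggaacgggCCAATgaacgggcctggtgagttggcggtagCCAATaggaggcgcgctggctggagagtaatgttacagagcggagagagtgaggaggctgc
Cbx5, chr15:103239803-103240102, minus strand: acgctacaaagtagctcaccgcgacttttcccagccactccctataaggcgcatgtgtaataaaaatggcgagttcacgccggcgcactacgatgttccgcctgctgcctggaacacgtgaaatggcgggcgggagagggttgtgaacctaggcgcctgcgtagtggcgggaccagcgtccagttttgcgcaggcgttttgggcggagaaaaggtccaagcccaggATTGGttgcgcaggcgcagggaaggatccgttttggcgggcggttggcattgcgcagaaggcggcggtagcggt
H1f0, chr15:79027962-79028261, plus strand: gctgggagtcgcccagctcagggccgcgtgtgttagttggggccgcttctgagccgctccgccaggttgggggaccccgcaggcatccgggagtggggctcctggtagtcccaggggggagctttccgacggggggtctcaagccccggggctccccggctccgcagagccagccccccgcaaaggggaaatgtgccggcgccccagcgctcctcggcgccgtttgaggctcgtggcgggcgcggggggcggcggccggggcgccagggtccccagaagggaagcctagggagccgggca

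The Hmgb2 window held 4 CCAAT boxes and 2 CHR matches, the Hmgb1 window 3 CCAAT boxes, the Cbx5 window 1 (as ATTGG), and the H1f0 window neither motif. The windows at the other starts searched for Hmgb1 and Cbx5, not shown, held neither motif. A CCAAT box was found in 37.4% of 32851 RefSeq promoter windows of the same length, 3 or more of them in 3.37%, and a CHR match in 19.2%. Of the 8 genes whose windows were searched, Lbr had 2 CCAAT boxes and 1 CHR match, Lmna had 1 CCAAT box at the second of its starts, and Lmnb2 and Cbx1 had neither. No window held the E2F letters TTTCCCGC, TTTGGCGC, TTTCGCGC or TTTGCCGC, found in 2.26% of windows. A match is a description of the letters only.

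The tethers come first. Lbr (chromosome 1, 181815335 to 181843046 on the minus strand, GRCm38) encodes the lamin B receptor, an inner membrane protein that also binds HP1. It was at 115 and 67.7 CPM in iPSC and 107, 34.5 and 55.1 CPM in ESC libraries at day 18. From day 21 on, every library lay between 38.5 and 64.1 CPM, and the last day, with 64.1 CPM in the iPSC and 40.5 CPM in the ESC library, overlapped every earlier day. Its log2 fold change at day 35 against day 18 was -0.46 (SE 0.35, limma adjusted p = 0.433), and its slope was -0.03 per day (adjusted p = 0.243). Leaving out the low-Nrl pair at day 18 brought the log2 fold change to -0.03, so the level of Lbr at day 18 rested on those libraries. Lbr mRNA was thus still measured at day 35 at a mean of 52.3 ± 16.7 CPM (SD, n = 2), against 75.9 ± 34.3 CPM at day 18 (SD, n = 5).

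Lmna (chromosome 3, 88480147 to 88509956, minus strand) encodes lamins A and C. It was the lowest of the 7 genes that could be compared per length, at a mean of 6.02 TPM (transcript abundance scaled to length and library size, range 2.68 to 13.3 over 16 libraries). At day 18 it had 4.58 and 3.96 CPM in iPSC and 6.69, 6.13 and 14.1 CPM in ESC libraries, and at day 35 it had 7.48 CPM in the iPSC and 7.68 CPM in the ESC library. The days overlapped throughout: the log2 fold change at day 35 against day 18 was 0.25, with a 95% confidence interval of -0.67 to 1.17 and a limma adjusted p of 0.756. That interval covers changes of either sign. The estimated counts behind these values were 23.0 to 171.3 per library. The transcript for lamin A (Lmna-201, 665 residues) took 0 to 56.0% of Lmna TPM and that for lamin C (Lmna-203, 574 residues) 0 to 51.5%, both as estimates from few reads. Their mean shares were 10.2 and 25.7%. Lmna-202, of 462 residues, took a mean of 32.5%, and Lmna-205, annotated with a retained intron, 24.6%. The Lmna-201 share at days 28 and 35 was 43.7 and 13.2% in the iPSC and 0 and 56.0% in the ESC libraries. In the 12 earlier libraries it had a median of 0 and a highest value of 24.8%.

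The B-type lamins line the inner nuclear membrane in all cell types. Lmnb1 (chromosome 18) had 231 and 157 CPM in iPSC and 222, 79.8 and 142 CPM in ESC libraries at day 18. It had 100.2 CPM in the iPSC and 118, 106 and 119 CPM in the ESC libraries at day 21, and 109.6 and 106 CPM in iPSC and 124 CPM in the ESC library at day 25. It had 97.1 CPM (iPSC) and 96.3 CPM (ESC) at day 28, and 76.5 CPM (iPSC) and 51.2 CPM (ESC) at day 35. Both libraries of day 35 lay below every earlier library, and the 4 libraries of days 28 and 35 lay below all 7 of days 21 and 25, while days 21 and 25 overlapped. Lmnb1 fell by 1.32 on the log2 scale at day 35 against day 18 (SE 0.32, limma adjusted p = 0.0273), and its slope was -0.07 per day (SE 0.02, adjusted p = 0.0121). No word of 31 bases of Lmnb1 occurs in another annotated gene.

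Lmnb2 (chromosome 10, 80901203 to 80918245, minus strand) gave opposite signs in the 2 sources, without a called difference. It was at 28.7 CPM in iPSC cells at day 35 against 28.0 and 26.6 CPM at day 18, and at 13.7 CPM in ESC cells at day 35 against 37.8, 16.7 and 35.6 CPM at day 18. The fit over both sources gave -0.47 (SE 0.35, limma adjusted p = 0.443), and without the ESC library of day 35 it gave 0.16. The difference between the sources in the slope of Lmnb2 was not called (0.03 per day, adjusted p = 0.834).

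Per length, lamin transcripts were mostly Lmnb1. Of the summed TPM of the 3 lamin genes, Lmnb1 took 73.8 to 90.7%, Lmnb2 7.49 to 18.9% and Lmna 1.81 to 11.3%. The Lmnb1 share was lowest at day 35, with 73.8% in the iPSC and 75.0% in the ESC library, where Lmna took 7.27% and 11.3%. The sum over the 3 genes was also lowest there, at 91.3 and 70.8 TPM, against up to 258 TPM at day 18. The shares are a description over 16 libraries, since the Lmnb1 fall given above sets most of them.

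**Figure D2:**
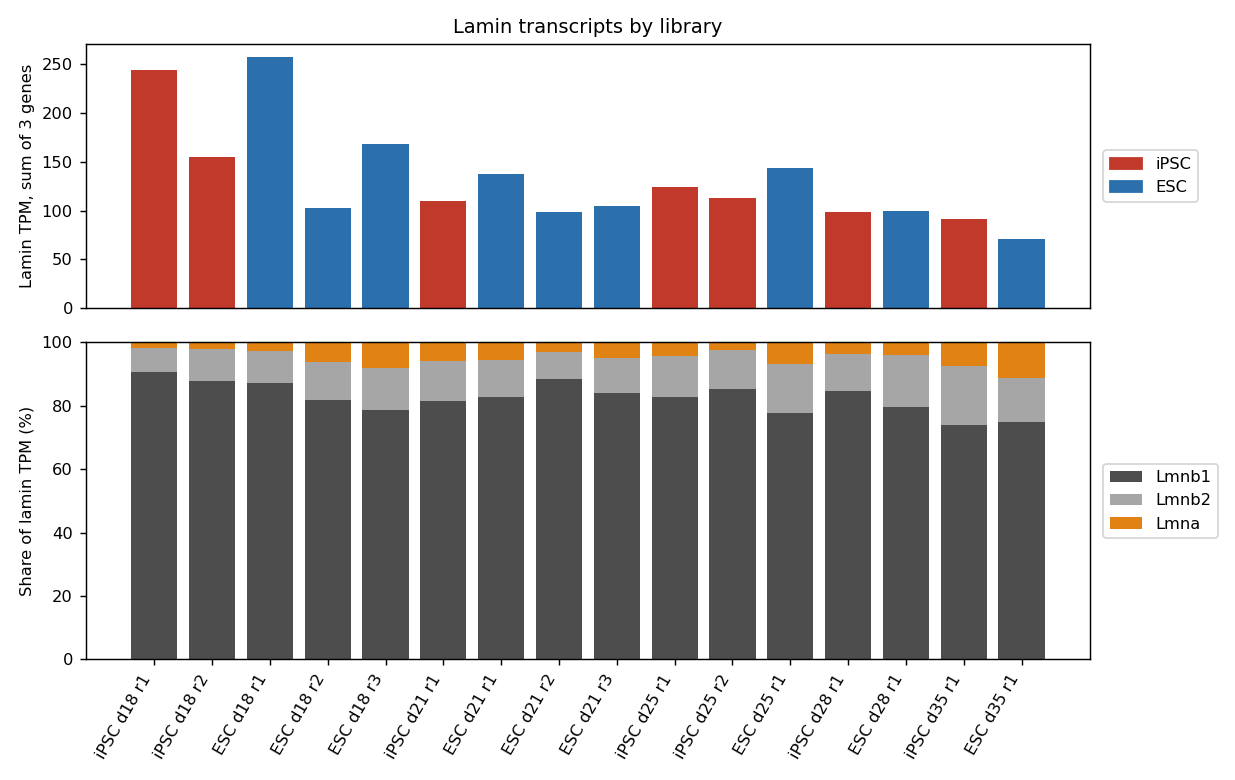
Top, summed TPM of Lmnb1, Lmnb2 and Lmna (y axis, from 0) in each of the 16 libraries (iPSC red, ESC blue), ordered by day (d) and replicate (r). Bottom, the share of each gene in that sum in percent; the day 35 bars have the smallest Lmnb1 shares, 73.8% (iPSC) and 75.0% (ESC).

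The HP1 genes are readers of heterochromatin, and both fell over the days. Cbx5 (chromosome 15, 103191544 to 103239816, minus strand) encodes HP1 alpha, which gathers at constitutive heterochromatin. It had 384 and 284 CPM in iPSC and 345, 305 and 217 CPM in ESC libraries at day 18. It had 252 CPM (iPSC) and 271, 333 and 203 CPM (ESC) at day 21, and 250.0 and 243 CPM (iPSC) and 208 CPM (ESC) at day 25. At day 28 it had 130.2 CPM in the iPSC and 203 CPM in the ESC library, and at day 35 87.6 CPM in the iPSC and 213 CPM in the ESC library. The 4 libraries of days 28 and 35 lay below every library of day 18, but the ESC ones reached into the range of days 21 and 25 (203 to 333 CPM). The gap to day 18 was narrow, at 213.2 CPM (ESC, day 35) against 216.8 CPM (ESC replicate 3, day 18). Per length the same libraries overlapped, at 85.76 against 78.61 TPM. Cbx5 fell by 1.12 on the log2 scale at day 35 against day 18 (SE 0.32, limma adjusted p = 0.0484), with a slope of -0.07 per day (adjusted p = 0.0152). The day 35 call was lost in edgeR (-1.17, adjusted p = 0.0617) and in limma with no filter on low values (adjusted p = 0.0816). It was kept in DESeq2, with TMM factors and with CPM rescaled to the same sum.

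The sources differed most for Cbx5, although the difference was not called. Its slope was steeper in iPSC than in ESC cells by -0.08 per day (SE 0.03, unadjusted p = 0.00796 and adjusted p = 0.485 in limma). It was the only one of the 9 with an unadjusted p under 0.05 for that difference, which 8.11% of all genes had. Within iPSC libraries the log2 fold change at day 35 was -1.90 (adjusted p = 0.0667) and within ESC libraries -0.41 (adjusted p = 0.643). In 16 libraries the Cbx5-202 transcript of 8803 bases made up 70.9 to 98.1% of Cbx5 TPM.

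Cbx1 (chromosome 11, 96789127 to 96808640, plus strand) encodes HP1 beta. It ran from 80.2 to 183 CPM at day 18 and was at 68.5 CPM (iPSC) and 73.0 CPM (ESC) at day 35, below every day 18 library. The means ran 135 ± 39.6, 104 ± 14.7, 85.2 ± 5.89, 78.2 ± 14.6 and 70.7 ± 3.16 CPM over days 18, 21, 25, 28 and 35 (SD, n = 5, 4, 3, 2 and 2), and neighbouring days overlapped. The slope was called (-0.06 per day, SE 0.01, limma adjusted p = 0.0178) and the day 35 comparison missed the threshold (-0.88, SE 0.26, adjusted p = 0.0556). With other tools or scalings the day 35 comparison of Cbx1 was called, with an adjusted p of 0.0417 in edgeR, 0.00375 in DESeq2, and 0.0379 and 0.0380 in limma with TMM factors and with CPM rescaled to the same sum. Most Cbx1 TPM, 59.0 to 80.6%, was assigned to Cbx1-204, a transcript that GENCODE annotates as a target of nonsense-mediated decay, and 14.7 to 27.3% to Cbx1-203, which encodes the full protein of 185 residues.

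Both HMG-box genes fell. Hmgb2 (chromosome 8, 57511907 to 57515999, plus strand) encodes a DNA-bending protein known for its high level in dividing cells. It had 409 and 198 CPM in iPSC and 367, 105 and 195 CPM in ESC libraries at day 18. It had 79.1 CPM (iPSC) and 144, 117 and 61.8 CPM (ESC) at day 21, and 86.0 and 48.7 CPM (iPSC) and 55.3 CPM (ESC) at day 25. At day 28 the iPSC library had 62.0 CPM and the ESC library 126 CPM, and at day 35 they had 40.8 and 42.6 CPM. The day 35 pair lay below all 14 earlier libraries, and days 21, 25 and 28 overlapped each other. Hmgb2 fell by 2.42 on the log2 scale at day 35 against day 18 (95% confidence interval -3.46 to -1.38, limma adjusted p = 0.0151), the widest change among the 9 genes, with a slope of -0.13 per day (adjusted p = 0.0123). On the days between, the comparisons with day 18 had the same sign and were not called in the fit with day and source as terms: the log2 fold change was -1.25 at day 21 (limma adjusted p = 0.217), -1.87 at day 25 (0.0823) and -1.35 at day 28 (0.150).

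Hmgb1 (chromosome 5, 149046702 to 149184489, minus strand) encodes the most abundant HMG-box protein of most cells, and per length it was the highest of the 7 genes compared, at a mean of 408.5 TPM (range 228 to 828). It had 492 and 369 CPM in iPSC and 437, 193 and 239.7 CPM in ESC libraries at day 18. It had 238 CPM (iPSC) and 242, 326 and 244 CPM (ESC) at day 21, and 218 and 215 CPM (iPSC) and 199.9 CPM (ESC) at day 25. It had 192 CPM (iPSC) and 169.6 CPM (ESC) at day 28, and 166 CPM (iPSC) and 125.0 CPM (ESC) at day 35. The 4 libraries of days 28 and 35 lay below all 12 earlier ones, and each later day had a lower mean than the one before. Hmgb1 fell by 1.20 on the log2 scale at day 35 against day 18 (SE 0.29, limma adjusted p = 0.0283), and its slope of -0.07 per day had the smallest adjusted p of the 9 (0.00664).

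Levels of both HMG-box genes carry an uncertainty of counting, because 24.7% of the 31-base words of Hmgb1 and 21.4% of those of Hmgb2 also occur in other annotated genes. Gm15387, which shares 11.9% of the Hmgb1 words, reached 123 CPM in 1 library. Shares were 9.40% for Lbr, 6.57% for H1f0 and at most 2.26% for the others.

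Within Hmgb1, the estimated share of one transcript also differed by day. Hmgb1-201, of 2838 bases, took 39.2% (iPSC) and 34.3% (ESC) of Hmgb1 TPM at day 28 and 41.3% (iPSC) and 45.5% (ESC) at day 35, against 20.6 to 33.9% in the 12 earlier libraries. Its own level was 84.6 to 114 TPM in the late libraries and 81.3 to 173 TPM in the earlier ones, so the transcript was not itself higher late. Hmgb1-203, of 1720 bases and encoding the same 215 residues, took 25.6 to 50.4% late and 30.0 to 53.1% earlier, and overlapped. This share was picked out after its values were seen and has no test.

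**Figure D3:**
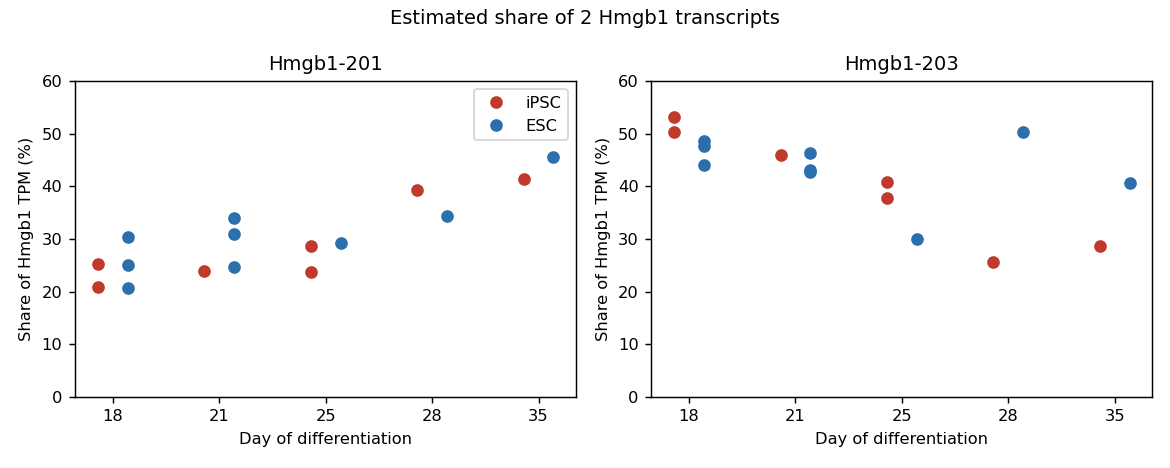
Estimated share of Hmgb1 TPM in percent (y axis, from 0) by day of differentiation (x axis) for the transcripts Hmgb1-201 and Hmgb1-203, with iPSC libraries in red and ESC libraries in blue. The 4 Hmgb1-201 points of days 28 and 35 lie at 34.3 to 45.5%, above the 12 earlier points.

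H1f0 (chromosome 15, 79028450 to 79030504, plus strand) was highest in the middle of the series. It encodes H1.0, the replacement linker histone known to build up in cells that have left the cell cycle. It had 358 and 408 CPM in iPSC and 342, 201 and 359 CPM in ESC libraries at day 18. It had 436 CPM (iPSC) and 382, 437 and 503 CPM (ESC) at day 21, and 467 and 198 CPM (iPSC) and 497 CPM (ESC) at day 25. At day 28 it had 167 CPM in the iPSC and 395 CPM in the ESC library, and at day 35 128 CPM in the iPSC and 115 CPM in the ESC library. The means were highest at days 21 and 25, at 439 ± 49.6 CPM (SD, n = 4) and 387 ± 164 CPM (SD, n = 3), and the 2 libraries of day 35 lay below the other 14.

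H1f0 fell by 1.39 on the log2 scale at day 35 against day 18 (SE 0.39, limma adjusted p = 0.0445). With no filter on low values H1f0 was called neither at day 35 (limma adjusted p = 0.08) nor in slope (0.0769). At days 21, 25 and 28 against day 18 its log2 fold changes were 0.41, 0.18 and -0.32 (limma adjusted p = 0.482, 0.759 and 0.641). Its slope was -0.08 per day (adjusted p = 0.0453), although its day means were highest at days 21 and 25. A departure from a straight line was not tested. In days 28 and 35 against days 21 and 25 H1f0 had the widest change of the 9, -1.15 (SE 0.29, adjusted p = 0.0660), which was not called. The gene is not among the transcripts of the count and TPM tables used here, nor is Hmgb2, so neither could be compared per length.

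**Figure D4:**
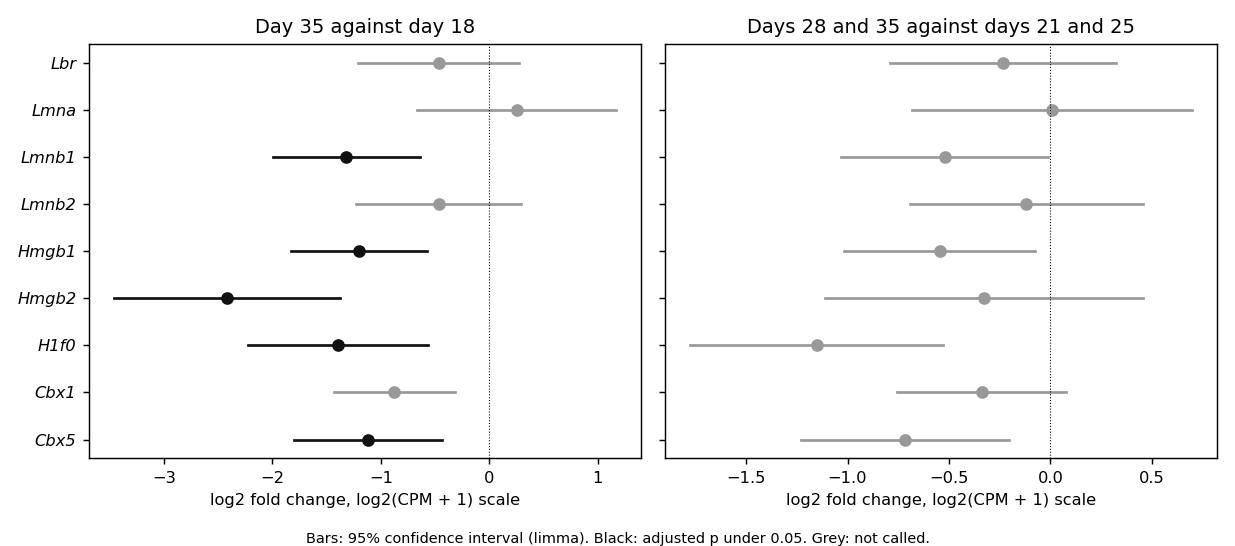
Change of log2(CPM + 1) for each gene (one per line), with the log2 change on the x axis, left for day 35 against day 18 and right for days 28 and 35 against days 21 and 25, with points for the limma estimate and bars for its 95% confidence interval. The 5 genes in black on the left were called; none was on the right, where H1f0 lies farthest from 0 at -1.15.

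Per length, the order of levels over all 16 libraries was Hmgb1 (mean 408.5 TPM), Cbx1 (123.7), Lmnb1 (110.9), Cbx5 (87.8), Lbr (50.4), Lmnb2 (15.8) and Lmna (6.02). Cbx1 at 76.5 to 230.0 TPM, Lmnb1 at 53.1 to 225 TPM and Cbx5 at 29.9 to 143 TPM overlapped, as did Cbx5 with Lbr (29.1 to 100.0 TPM), and the lowest Hmgb1 and highest Lmna values reached just into the range of Cbx1 and of Lmnb2 (8.44 to 26.1 TPM). The same order of Lbr, Lmnb2 and Lmna held in the means of every day.

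Read over all days, the later window added little that the tests could call. In days 28 and 35 against days 21 and 25, none of the 9 genes was called, where 1.47% of all genes were (0.776% lower and 0.691% higher). At an unadjusted p under 0.05 there were 4 (Lmnb1, Hmgb1, H1f0 and Cbx5), against 16.4% of all genes. No gene of the 9 was called by limma with day and source as terms at day 21, 25 or 28 against day 18, where 0, 0.0395 and 0.579% of all genes were called, at day 28 0.0724% of them lower. At an unadjusted p under 0.05 the 9 held 1, 3 and 5 genes on those days, against 18.8, 24.4 and 22.0% of all genes. DESeq2 on 7 of the 9 called 2 at day 25, where it called 11.1% of all genes, and 2 at day 28, where it called 7.27%. By edgeR none of the 7 was called, beside 0.0753 and 0.398% of all genes. Of genes whose 2 libraries at day 35 lay below all 5 at day 18, the 9 held 6 (Lmnb1, Hmgb1, Hmgb2, H1f0, Cbx1 and Cbx5), and the background was 10.1%; none of the 9 lay above, against 10.9% of all genes. Those whose day 35 libraries lay below all 14 earlier libraries were 4 of the 9 (Lmnb1, Hmgb1, Hmgb2 and H1f0), against 1.91% of all genes, and none lay above all 14, against 2.24%. The 4 libraries of days 28 and 35 lay below all 5 of day 18 for 2 of the 9 (Hmgb1 and Cbx5), against 3.91% of all genes, and below all 7 of days 21 and 25 for 2 (Lmnb1 and Hmgb1), against 1.98%. None of the 9 lay above in either, against 5.25 and 1.09%. These counts are in CPM, and in TPM the ESC library of day 35 overlapped day 18 for Cbx5.

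These calls rested on few libraries at the ends of the series. The 5 calls at day 35 became 0 without the low-Nrl pair of day 18 (Hmgb2 -1.89, limma adjusted p = 0.0594) and 0 without the iPSC library of day 35 (Hmgb2 -2.39, 0.0951), with all 6 genes still lower in both. The share of all genes called, in either direction, also came down in these fits, to 0.993 and 1.91%. They became 1 (Hmgb2) without either low-Nrl library alone, where 3.38% (ESC left out) and 2.33% (iPSC left out) of all genes were called. Without the Y-linked pair 1 was left (Hmgb2), beside 4.16% of all genes. They came to 3 without ESC replicate 1 or 2 of day 21 or the ESC library of day 25 (6.45, 5.71 and 5.68% of all genes). The count was also 3 without iPSC replicate 2 of day 18 or the iPSC library of day 21 (9.61 and 6.02%). Without the ESC library of day 35, which left 1 library on that day, not all 5 calls were kept. The log2 fold changes in that fit were -2.45 for Hmgb2, -1.78 for Cbx5, -1.21 for H1f0, -1.12 for Hmgb1 and -1.08 for Lmnb1. The 6 slope calls became 3 without the low-Nrl pair and 3 without the iPSC library of day 35, and in both cases the 3 were Lmnb1, Hmgb1 and Hmgb2, where 5.26 and 3.66% of all genes were called. Within iPSC libraries alone, 4 slopes were called (Hmgb1, Hmgb2, Cbx1 and Cbx5), where 8.48% of all genes were. Within ESC libraries none of the 9 was, where 0.697% of all genes were, with slopes of -0.11 for Hmgb2 (limma adjusted p = 0.248), -0.07 for Hmgb1 (0.137) and -0.07 for Lmnb1 (0.171).

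The source of the stem cells made no called difference to any of the 9 genes. At equal day, the log2 difference of iPSC over ESC ran from -0.48 for Lmna (95% confidence interval -1.06 to 0.09) to 0.30 for Lbr (-0.17 to 0.76), with limma adjusted p of 0.753 or more. Lmna averaged 5.08 ± 1.71 CPM in iPSC libraries (SD, n = 7) and 7.60 ± 3.18 CPM in ESC libraries (SD, n = 9), and Lbr 65.6 ± 22.6 CPM in iPSC and 56.1 ± 21.4 CPM in ESC libraries. Hmgb2, at 132 ± 133 CPM in iPSC and 135 ± 99.4 CPM in ESC libraries, had a log2 difference of -0.002, with an interval from -0.66 to 0.65 that allows a change of that size either way. None of the 15202 genes was called for source by limma, while 840 (5.53%) had an unadjusted p under 0.05, none of the 9 among them, and edgeR and DESeq2 called none of the 7 members in the count sums.

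The falling genes were compared with Mki67, the gene of the Ki-67 antigen of dividing cells, which averaged lower at later days too. Mki67 was at 462 and 172 CPM in iPSC and 406, 66.4 and 146 CPM in ESC libraries at day 18, and at 1.20 CPM in the iPSC and 35.3 CPM in the ESC library at day 35. Across the 16 libraries, log2(CPM + 1) of Hmgb2 followed that of Mki67 with Pearson's r = 0.87 and Spearman's rho = 0.94 (permutation tests, adjusted p = 0.00018 for both over 18 relations, the smallest that 100000 permutations give before adjustment being 1e-05). Cbx1 had r = 0.84 and rho = 0.86 (adjusted p = 0.000405 and 0.00054, permutation tests) and Cbx5 r = 0.87 and rho = 0.75 (0.00027 and 0.00513). These libraries share day and sort, so a common course over days enters each r. Among the 11 libraries after day 18, r was 0.73 for Hmgb2, 0.73 for Cbx1 and 0.86 for Cbx5.

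For Lmnb1 and Hmgb1 the linear relation to Mki67 was weaker without the low-Nrl pair. Each had r = 0.65 over 16 libraries (permutation tests, adjusted p = 0.0148), and rho was 0.67 and 0.66 (permutation tests, adjusted p = 0.0149 and 0.0164). Without the low-Nrl pair r was 0.41 and 0.42, and after day 18 it was 0.26 and 0.28. The size of r thus rests in part on those 2 libraries. H1f0 had r = 0.50 and rho = 0.18 (permutation tests, adjusted p = 0.0667 and 0.606), and 0.12 without the 2 libraries lowest in Mki67. Lbr had r = 0.42 (adjusted p = 0.148) and -0.11 without the low-Nrl pair, but 0.65 without the 2 libraries lowest in Mki67. Lmnb2 and Lmna had r = 0.28 and 0.04. Leaving out those same 2 lowest libraries, the iPSC libraries of days 28 and 35, gave 0.92 for Hmgb2, 0.83 for Cbx1, 0.68 for Cbx5, 0.66 for Lmnb1 and 0.65 for Hmgb1.

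Against Nrl the signs were the other way. Hmgb2 had r = -0.84 and rho = -0.73 (permutation tests, adjusted p = 0.000405 and 0.00706), Cbx1 r = -0.80 and rho = -0.70 (0.00101 and 0.0114) and Cbx5 r = -0.67 and rho = -0.82 (0.0149 and 0.0006). Without the 2 libraries lowest in Nrl these were -0.62, -0.50 and -0.56. For Hmgb1 and Lmnb1 r was -0.67 and -0.62 (permutation tests, adjusted p = 0.0148 and 0.0209), and rho was -0.52 and -0.41 (0.0788 and 0.18). Their r fell away to -0.18 and -0.03 without that pair, so those relations rest on it. For Lbr, r was -0.60 (adjusted p = 0.0236, permutation test) and 0.27 without the pair, and rho was -0.24 (adjusted p = 0.515, permutation test).

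**Figure D5:**
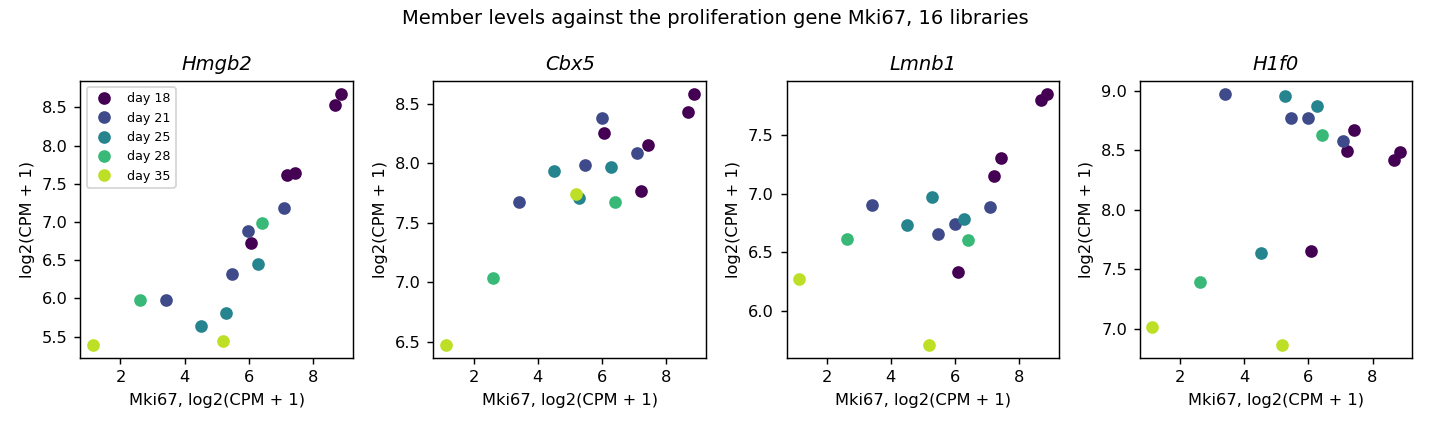
log2(CPM + 1) of Hmgb2, Cbx5, Lmnb1 and H1f0 (y axes) against that of Mki67 (x axes) in the 16 libraries, coloured by day. Hmgb2 rises with Mki67 over the 16 libraries (r = 0.87), but lies at 40.8 to 62.0 CPM wherever Mki67 is between 1.20 and 38.0 CPM. The Lmnb1 points between the low-Nrl pair at the top right and day 35 at the bottom form a flatter band.

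The genes whose course was most like each of the 9 over the 16 libraries, among 11040 compared, are given as a description. For Hmgb2 they were Mcm2 (r = 0.975), a helicase subunit of replication, Gmnn (0.971), the inhibitor of replication licensing, and Snrpd1 (0.969). For Cbx1 they were Nono (0.971), Nasp (0.969), a histone chaperone, and Bard1 (0.962). For Lmnb1 they were Rpa2 (0.932), which binds single-stranded DNA, Vrk1 (0.923) and Dnmt1 (0.920), the maintenance DNA methyltransferase. For Hmgb1 the first was Slbp (0.936), which binds the stem-loop of histone mRNAs, for Lmnb2 Pold1 (0.948), for Lbr Wdr5 (0.921), for Cbx5 Chml (0.952), for H1f0 Hes2 (0.940) and for Lmna Lrp10 (0.913).

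Other genes of the nuclear envelope did not share one direction. Of 20 measured at day 35 against day 18, 1 was called higher and 2 lower, with a median log2 fold change of 0.20. Over all genes, 4.54% were called higher and 2.99% lower, so 1 of 20 higher is near the background. Syne1, which encodes nesprin-1 of the bridge between nucleus and cytoskeleton, was at 86.7 CPM (iPSC) and 84.2 CPM (ESC) at day 35, against 9.77 and 7.97 CPM in iPSC and 11.2, 68.7 and 6.32 CPM in ESC libraries at day 18. Its log2 fold change was 2.57 (SE 0.73, limma adjusted p = 0.0491), called in 3 of 16 fits that each left out a library. Sun2, the inner membrane partner of nesprins, fell by 1.06 (adjusted p = 0.0279), and Banf1, which encodes a small DNA-binding protein of the envelope, fell by 1.02 (adjusted p = 0.0232). In the slope fit, Syne1 (0.16 per day, adjusted p = 0.0147), Icmt (0.14, 0.0355), whose enzyme methylates prenylated lamins, and Tor1aip1 (0.05, 0.0212) rose, while Sun2 (-0.07, 0.00962) and Banf1 (-0.06, 0.0212) fell. Over all genes 6.81% had a called rise in slope and 5.29% a called fall. None of 20 nuclear pore genes was called at day 35 (median -0.23), and 1, Nup133, was called lower in slope (-0.04 per day, adjusted p = 0.0333).

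Among 18 heterochromatin factors, Casz1, a zinc-finger factor known to affect nuclear organisation in mouse rods, rose at day 35 (1.87, SE 0.51, limma adjusted p = 0.0411), and Uhrf1, which guides maintenance methylation at replication, fell by 3.42 (SE 0.78, adjusted p = 0.0240). Casz1 was at 465 CPM (iPSC) and 191 CPM (ESC) at day 35, against 42.8 and 167 CPM in iPSC and 52.3, 84.4 and 102 CPM in ESC libraries at day 18, without overlap, and it was called in 7 of 16 fits that each left out a library. Cbx3, the gene of HP1 gamma, had a log2 fold change of -0.38 (adjusted p = 0.330) and was not called. The median of the list was -0.17.

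Of the 7 other HMG genes, 3 were called lower at day 35 and none higher, where 2.99% of all genes were called lower and 4.54% higher. The 3 called lower were Hmga1 (-1.99, limma adjusted p = 0.0496), Hmgb3 (-1.77, 0.0261) and Hmgn5 (-1.67, 0.0313), and the median of the list was -1.65. Of 16 fits that each left out a library, Hmga1 was called in 2, Hmgb3 in 13 and Hmgn5 in 13. Hmgn1, a nucleosome-binding protein, went the other way and was called in slope (0.05 per day, adjusted p = 0.0291), not at day 35 (0.86, adjusted p = 0.0516). Linker histones other than H1f0 were low or varied. Hist1h1c had 115 CPM (iPSC) and 26.7 CPM (ESC) at day 35, against 16.5 to 42.9 CPM at day 18, and was not called (0.97, adjusted p = 0.291). Libraries were made from polyA RNA, and most histone mRNAs of dividing cells lack a polyA tail.

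Of 20 cohesin and condensin genes, 2 condensin I subunits were called lower at day 35, Ncapg (-3.27, limma adjusted p = 0.0450) and Ncaph (-3.05, 0.0334), and none higher. Of 16 fits that each left out a library, Ncapg was called in 6 and Ncaph in 12. Over all genes, 2.99% were called lower and 4.54% higher. Of 16 cell cycle genes, 7 fell and none rose, with a median of -2.76, while 5 of 10 rod genes rose and none fell, with a median of 4.87. No gene of the envelope, pore, heterochromatin, linker histone, HMG, cohesin and condensin or cell cycle lists was called at day 35 without the low-Nrl pair, and 3 rod genes were. The counts of these lists also came to 0 without the iPSC library of day 35, except for the rod genes.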

How the data were processed

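Per the submitters' processing notes, reads were trimmed with Trimmomatic 0.36, quantified with kallisto 0.42.5 and analysed with edgeR on GRCm38.p4; other upstream details are not given in the sources used here. The deposited gene table holds a score, a transform of expression by the authors that was undone here as CPM = 2 to the power of the square root of (value + 1), minus 1. That reading was tested on the files, after 1 scale factor per library, estimated from the same genes, was taken out. For 8489 of 8688 genes (97.7%), the ratio of CPM to TPM was then constant over all libraries within 0.001 on the log2 scale. The deposited estimated counts and the TPM values, per the file headers of the transcript tables, were summed per gene through GENCODE (65096 of the 65535 transcripts held were matched), and 7 of the 9 genes have transcripts there. Total counts rebuilt for the gene table were 3860433 to 21877626 per library, so 1 count was worth 0.0370 to 0.213 CPM. CPM over the genes given sum to 642418 to 885155, since a part of each library lies outside them.

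Genes with at least 1 CPM in at least 2 libraries (15202) were fitted with limma 3.58.1 (R 4.3.3, trend) on log2(CPM + 1), with day and source as terms over all 16 libraries, or with a slope per day. A fold change on this scale understates the change of low genes. Alternatives were edgeR 4.0.16 and DESeq2 1.42.0 on rounded sums of estimated counts (9300 genes with at least 10 counts), other pseudocounts, filters and scalings, a replicate block, each source alone and fits without single libraries or pairs. Fits were tested on simulated data.

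The 9 genes and all lists were chosen with earlier results of these data known. Named beside them were up to 4 called genes of at least 5 CPM with the widest change per list and comparison (or up to 2 of the most abundant where none was called), the 3 genes most similar to each of the 9, and Mki67 and Nrl as context; Cbx3, Icmt, Hmgn1 and the library-wide marker genes were added after their values were seen. Intervals cover the spread between libraries only.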

Additional observations from a re-analysis of the deposited data

Results flagged for a closer look

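At day 18, Lmna was highest in ESC replicate 3, at 14.1 CPM, where the other 4 libraries of that day had 3.96 to 6.69 CPM; the gap to the next library was 0.732 of the whole range. At day 21, Hmgb1 was highest in ESC replicate 2, at 326.0 CPM, where the other 3 had 238 to 244 CPM, a gap of 0.931 of the range. This gap was looked for in 18 groups, and chance gives about 1 in 20.

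Lmnb2 at day 35 against day 18 moved apart between the sources, with a log2 change larger by 1.07 in iPSC than in ESC libraries. H1f0 at day 28 against day 18 had a log2 change of iPSC minus ESC of -1.63, from 167 CPM at day 28 against 358 and 408 CPM at day 18 in iPSC, and 395 CPM at day 28 against 201 to 359 CPM at day 18 in ESC libraries. Each rests on 1 library per source at the later day, and neither difference was tested.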

How the results depend on the processing

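Of 1156 values of single genes under an alternative, 1011 kept their direction and side of the threshold, 81 no longer passed it, 15 newly did and 49 changed sign, none of the 49 past it. At day 35 against day 18, 3 of the 9 genes were called with no filter on low values (3.22% of all genes). Without the Y-linked pair 1 was called (4.16%), and without the low-Nrl pair 0 (0.993%). Within ESC and within iPSC the count was 0, where 0.756 and 0.5% of all genes were called. Leaving out 1 library gave 0 to 6. Slope calls came to 3 without the low-Nrl pair (5.26% of all genes) and 0 within ESC (0.697%), and to 3 to 6 with 1 library left out. DESeq2 called 2 at day 25 and 2 at day 28 against day 18 (11.1 and 7.27% of all genes). In limma, the replicate block called 1 at day 25, Hmgb2 (-2.07, limma adjusted p = 0.0117), where it called 14.2% of all genes. It called 4 at day 28, among them Hmgb2 (-1.81, 0.022), where it called 15.9% of all genes. Leaving out 1 library was done without the block only, and gave 0 to 1 at either day. In days 28 and 35 against days 21 and 25, the block called 1 (H1f0, -1.29, limma adjusted p = 0.047), beside 2.62% of all genes. Leaving out 1 library there, without the block, gave 0 to 1. The cause was not tested. Replicate numbers were not taken to pair the libraries, since no label ties them: deviations of same-numbered libraries correlated at 0 to 0.641 over 13 pairs, 10 of them over 0.1 and 3 not. As a hint from the data, 2 of 3 ESC libraries of day 21 correlated best with their own number at day 18. With the block Cbx1 was also called at day 35 (-1.05, adjusted p = 0.0185), and all genes called at day 35 were 2943 against 1144 without it, 735 with no filter, 643 by edgeR, 150 without the low-Nrl pair and 290 to 1809 with 1 library left out. For the slope the block called 3051 genes, against 1840 without it and 795 without the low-Nrl pair.

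Sign changes were all in uncalled values. H1f0 at day 25 was -0.325 within iPSC, and at day 28 0.437 within ESC. At day 35, Lmna was -0.114 within ESC and Lmnb2 0.0702 within iPSC. In days 28 and 35 against days 21 and 25, Lmna was -0.158 with the block and -0.308 within ESC, and within iPSC Lbr was 0.119 and Lmnb2 0.046. The Lmna slope was -0.000621 with CPM rescaled to the same sum, -0.0032 with the block and -0.00624 within ESC. For iPSC against ESC, Lmnb2 was 0.029 with the block, 0.0123 without the low-Nrl pair and 0.0276 without the Y-linked pair, which also gave 0.115 for Hmgb2. With 1 library left out, H1f0 ran from -0.0758 to 0.572 at day 25 and from -0.968 to 0.291 at day 28. At day 35, Lmnb2 ran from -1.06 to 0.157 and Lmna from -0.00203 to 0.52. In days 28 and 35 against days 21 and 25, Lmna ran from -0.155 to 0.149 and Lmnb2 from -0.414 to 0.192. The slope of Lmnb2 ran from -0.0337 to 0.00555 and that of Lmna from -0.00945 to 0.018. For iPSC against ESC, Lmnb2 ran from -0.196 to 0.103, Hmgb2 from -0.202 to 0.159, H1f0 from -0.261 to 0.0232, Cbx5 from -0.266 to 0.0179 and Cbx1 from -0.00215 to 0.178. Rescaling to the same sum moved the median of all genes at day 35 from 0.04 to -0.08 and that of the 9 from -1.12 to -1.27. Where a day or source was left with 1 library, it was assumed to vary like the others. Depth limits Lmna most, at 23.0 estimated counts in its lowest library.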

Other observations

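In slope per day, 5 of 20 cohesin and condensin genes were called lower and none higher, against 5.29 and 6.81% of all genes. They were Ncapg, Ncaph, Ncapg2, Smc2 and Top2a, which act on mitotic chromosomes, and none was called without the low-Nrl pair. The cohesin genes and Ctcf were not among those called.

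ESC replicate 2 of day 18 was the lowest of its day for Lbr, Lmnb1, Lmnb2, Hmgb1, Hmgb2, H1f0 and Cbx1. Its 9 genes summed to 1021 CPM, its fibroblast list to 305 CPM and its pigment epithelium list to 1555 CPM. Its Syne1, at 68.7 CPM, lay near the day 35 levels, where the other 4 libraries of day 18 had 6.32 to 11.2 CPM.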
